A study of Mus musculus with 11 samples.

Results

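Ribosome footprints from the cortex of the occluded hemisphere, 3 h after a transient stroke, were compared with footprints from the cortex of sham-operated mice. These are 7 of the 11 footprint libraries of the series, chosen by their labelled group: 4 ipsilateral libraries (replicates 2, 4, 5 and 6) and 3 sham libraries (replicates 1, 2 and 5). All mice were wildtype C57BL6, aged 7-8 weeks. For the occlusion, a nylon filament blocked the right middle cerebral artery (MCA) for 35 min under brief isoflurane anaesthesia, while the common carotid artery was tied off, and the brain was then reperfused for 3 h. Sham mice were anaesthetised and had their arteries exposed for the same time with no filament. The side of the sham cortex is not stated. In the ipsilateral samples the tissue entry names the contralateral side whereas titles and descriptions name the ipsilateral side, and the latter were followed. The remaining 4 libraries, from the opposite (contralateral) hemisphere, entered the fit and are quoted only beside genes that the comparison turns on. Each replicate number stands for a separate day of surgery, and whether a library pools several mice is not stated.

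A ribosome footprint is the stretch of messenger RNA that a ribosome shields from nuclease, so footprint counts follow both how much of a message is present and how many ribosomes sit on it. Nothing measured here separates these. Cells that meet unfolded proteins in the cytosol release heat shock factor 1 (HSF1), which switches on the inducible 70 kDa chaperones. Unfolded proteins in the endoplasmic reticulum activate a separate programme, the unfolded protein response, whose best known product is the chaperone BiP. Ischaemia and reperfusion are known triggers of both, and of the integrated stress response, which lowers protein synthesis as a whole while favouring messages such as Atf4.

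Of 3835 genes tested, 4 rose in ipsilateral cortex and 0 fell at an adjusted p under 0.05 (edgeR quasi-likelihood test, Benjamini-Hochberg adjustment). The genes that rose were Hspa1a and Hspa1b, the near-identical genes of the inducible 70 kDa chaperone, Hspa5, which encodes BiP, and Prg4, which encodes the secreted lubricating glycoprotein lubricin. The called genes make up 0.104% of the genes tested in the higher direction and 0% in the lower. Cryab, the myelin-associated genes Ptgds, Apod and Cldn11, and linker histones came next in the higher direction without passing. The phosphatase genes Strn4 and Ppp3ca led the lower direction, also without passing.

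The start regions of 3 of the called genes are shown because they carry the letters through which the 2 stress programmes are known to act. They come from RefSeq on GRCm38.p6, where 3 of the 4 called genes had an entry, and starts below are RefSeq's. For Hspa1a and Hspa1b the 160 bases that end just before the start are shown. In Hspa1a (chr17:34972157-34972316, minus strand) and Hspa1b (chr17:34959239-34959398, minus strand) the capitals mark GAANNTTC, a pair of facing GAA units of the heat shock element that HSF1 binds. For Hspa5 30 bases are shown (chr2:34772020-34772049, plus strand), in which the capitals mark the endoplasmic reticulum stress response element, spelled CCAAT, then 9 bases of any kind, then CCACG, so that its first letters are also a CCAAT box. In the mm10 annotation the gene bodies cover 34969190-34972156 (Hspa1a) and 34956436-34959238 (Hspa1b) of chromosome 17, 34771970-34777547 of chromosome 2 (Hspa5) and 150449412-150466165 of chromosome 1 (Prg4).
Hspa1a: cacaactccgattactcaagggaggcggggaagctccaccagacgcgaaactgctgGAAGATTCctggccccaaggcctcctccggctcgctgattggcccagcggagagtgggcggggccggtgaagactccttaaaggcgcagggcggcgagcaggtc
Hspa1b: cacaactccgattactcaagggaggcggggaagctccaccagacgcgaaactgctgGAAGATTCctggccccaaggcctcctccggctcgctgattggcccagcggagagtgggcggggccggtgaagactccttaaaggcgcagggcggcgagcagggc
Hspa5: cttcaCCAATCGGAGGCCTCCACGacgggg

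The heat shock letters lie from 104 to 97 bases before the start in both Hspa1a and Hspa1b. Searched on both strands over 250 bases before the start, GAANNTTC was present in 2199 of 32851 RefSeq promoters, 6.69%. The Hspa5 letters lie from 65 to 47 bases before its RefSeq start. The GENCODE gene body of Hspa5 starts 120 bases upstream of that start, so by that annotation the same letters lie inside the gene. Of all the promoters 37, 0.113%, hold that longer motif. The CCAAT box alone is in 33.8% of promoters. Over the 250 bases Hspa1a and Hspa1b differ at 3 positions and are 98.8% identical, and 1 of these positions lies in the 160 bases shown. A match describes the letters and is not evidence of binding in these samples.

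Values below are CPM, counts per 1000000 of a library after scaling, in the order sham replicates 1, 2 and 5 and ipsilateral replicates 2, 4, 5 and 6. Hspa1a, an inducible cytosolic chaperone that refolds damaged proteins, measured 70.7, 141 and 90.0 CPM in sham and 3206, 5280.1, 1695 and 4095 CPM in ipsilateral cortex. The groups are far apart, and within the ipsilateral group replicate 5 is lowest and replicate 4 highest. These levels rest on 18, 9 and 17 sham and 429, 180, 137 and 476 ipsilateral footprint counts. The log2 change was 5.28 ± 0.49 (SE), with an adjusted p of 0.00257. Hspa1b measured 78.5, 141 and 90.0 CPM in sham and 3154, 5133, 1732 and 4155 CPM in ipsilateral cortex, and rose by 5.22 ± 0.48 on the log2 scale (adjusted p = 0.00257). Its libraries stand in the same order as those of Hspa1a. Of the 28-nt words of the Hspa1a coding sequence, 89.5% also occur in Hspa1b and 91.9% in at least 1 other gene, so the split between the copies is uncertain and they are close to a single measurement. Counts of Hspa1b were 20, 9 and 17 in sham and 422, 175, 140 and 483 in ipsilateral libraries, nearly equal to those of Hspa1a in each. The same footprints may thus be counted for both copies. Hspa1a also overlaps the oppositely oriented gene Gm20481 over 564 nt. Its contralateral values, 60.6, 161, 131 and 105 CPM in replicates 1, 4, 5 and 6, cover those of sham, and the ipsilateral minus contralateral difference was 4.95 on the log2 scale (adjusted p = 0.00121). Between the hemispheres 13 genes (0.339%) were called higher and 1 (0.0261%) lower on the ipsilateral side, with no term for day of surgery.

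Per kilobase of transcript, Hspa1a moved from 33.9 CPM per kb in sham, rank 2229 of 3835 genes, to 1203 CPM per kb and rank 33 in ipsilateral cortex. It then took 0.357% of ipsilateral counts against 0.0101% of sham counts, and Hspa1b 0.354% against 0.0103%. These shares may hold the same footprints and are not to be added. The size of the change kept to 5.05 or more for Hspa1a and 5.01 or more for Hspa1b when any single sham or ipsilateral library was left out. In the fit blocked on day of surgery it was smaller, at 4.55 for Hspa1a and 4.52 for Hspa1b, and both stayed called. Without sham replicate 1 or sham replicate 5 the adjusted p of Hspa1a and Hspa1b was 0.0504 and 0.0505, just past the threshold, and with only sham and ipsilateral libraries fitted that of Hspa1a was 0.0526.

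Hspa5, the BiP chaperone that holds unfolded proteins in the endoplasmic reticulum, measured 1107, 974 and 1234 CPM in sham and 1689, 2053, 1757 and 2228 CPM in ipsilateral cortex. The lowest ipsilateral library lay well above the highest sham library. The log2 change was 0.79 ± 0.16 (SE), with an adjusted p of 0.00932. Hspa5 was already abundant in sham cortex, at 301 CPM per kb and rank 237, and stood at rank 120 ipsilaterally. None of its coding words occur in another gene. Its contralateral libraries lay in between, at 1307, 1423, 1477 and 1297 CPM, and the hemispheres were not called different (log2 difference 0.49, adjusted p = 0.174). The call of Hspa5 ended in the blocked fit, with day of surgery as a term (adjusted p = 0.0940), without sham replicate 1 (0.132), sham replicate 2 (0.0655) or ipsilateral replicate 6 (0.0572), and without the 2 shallowest libraries (0.122).

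Prg4, whose product lubricates joints and is also made by fibroblast-like cells, measured 31.4, 15.7 and 42.4 CPM in sham and 172, 235, 74.2 and 344 CPM in ipsilateral cortex. The groups do not overlap, and ipsilateral replicate 5 lies nearest to sham. The values rest on few footprints, 8, 1 and 8 in sham and 23, 8, 6 and 40 in ipsilateral libraries. The log2 change was 2.62 ± 0.44 (SE), with an adjusted p of 0.00257, and Prg4, which overlaps the oppositely oriented Tpr over 67 nt, went from rank 3755 to rank 1603 per kilobase. Contralateral values were 141, 45.9, 97.6 and 101 CPM, all above sham, and lay 1.54 above sham (adjusted p = 0.636) and 1.08 below ipsilateral cortex (adjusted p = 0.174) on the log2 scale. Of the 21 genes listed for meninges, fibroblasts and choroid plexus only 5 were tested, and the defining choroid plexus markers Ttr, Folr1, Kl and Clic6 were not analysed here. The summed level of these 5 genes, Prg4 included, was 1708, 1665 and 1789.6 CPM in sham and 3430.0, 2904, 1658 and 2856 CPM in ipsilateral libraries, so only replicate 5 did not exceed sham. The part of such cells in the Prg4 result was not tested. The Prg4 call ended in limma-voom (adjusted p = 0.180), without sham replicate 1 (0.132) and without the 2 shallowest libraries (0.0708), and DESeq2 gave Prg4 no adjusted p.

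**Figure D1:**
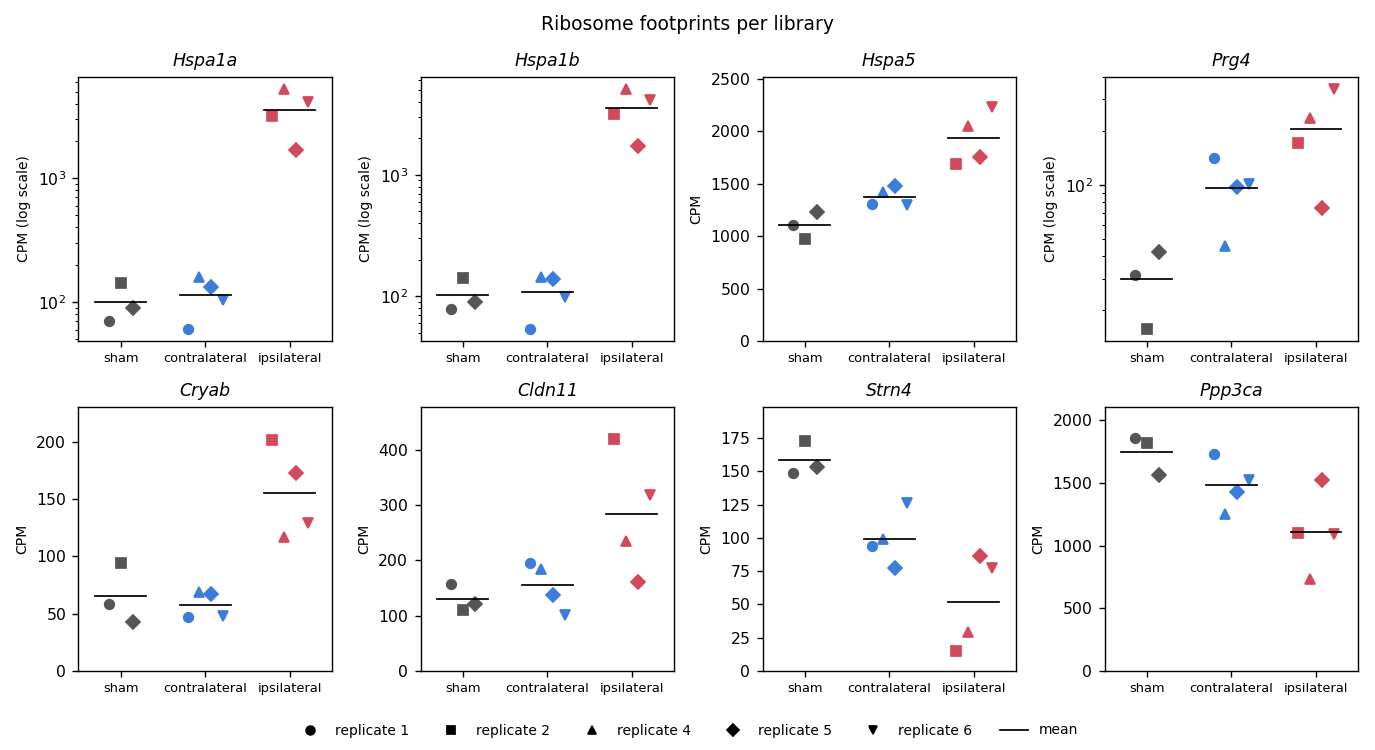
Footprint level (CPM after scaling) in every library for the 4 called genes and for Cryab, Cldn11, Strn4 and Ppp3ca, by group, with 1 point per library, the replicate given by the point's shape and a line at the group mean. Hspa1a, Hspa1b and Prg4 are on a logarithmic axis and the other genes on axes from 0; Hspa1a runs from 1695 to 5280 CPM in the 4 ipsilateral libraries and from 70.7 to 141 CPM in sham.

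The 7 libraries differ in depth. With 1 transcript counted per gene, sham libraries held 64460 to 256657 counts and ipsilateral libraries 35068 to 137341, the lowest in ipsilateral replicate 4. In a principal component analysis of log2 CPM, ipsilateral replicate 4 stood apart on the first component (30.3% of the variance) and sham replicate 2 on the second (18.3%). These are the 2 shallowest libraries, so depth and their position cannot be told apart. Cortical identity was checked on defining markers. All 6 excitatory neuron markers, all 5 inhibitory neuron markers and all 6 markers each of astrocytes and oligodendrocytes were measured. Of 7 striatal markers 2 were, and the defining markers of endothelial cells and leukocytes (4 of each) were not analysed here. Excitatory markers summed to 4390 to 5906 CPM in sham and 3789 to 5233 CPM in ipsilateral libraries.

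Depth sets what the comparison could detect. The median SE of a log2 change was 0.42 in the 959 genes with the lowest level (mean 45.8 to 82.5 CPM) and 0.22 in the 959 with the highest (229.9 to 11182 CPM). In simulated counts with the same means and library sizes, 100% of 50 genes raised by 2 on the log2 scale were called and 64% of those raised by 1. For lowered genes the shares were 84% at 2 and 34% at 1, so in the simulation a fall was harder to call than a rise of the same size. Every simulated gene had the same spread, the common dispersion of 0.0291, and 200 genes were changed at once. Real genes differ in spread and only 4 were called, so these shares need not hold for the real comparison. At an unadjusted p under 0.05 stood 164 higher genes (4.28%) and 133 lower genes (3.47%). All ipsilateral libraries lay above all sham libraries for 150 genes (3.91%) and below them for 126 (3.29%). DESeq2 called 10 genes higher and limma-voom 5, and each called 0 lower. The edgeR count was 0 without sham replicate 1, 2 without sham replicate 5, and 20 higher and 2 lower without ipsilateral replicate 5.

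Among 16 genes with a fitted log2 change above 2, only 3 were called, and 0 genes lay below -2. The other 13 all had their highest ipsilateral value in replicate 6. Rfx2, a transcription factor gene of ciliated cells, was among them. It measured 169, 1304 and 52.9 CPM in sham and 321, 645, 86.6 and 19056 CPM in ipsilateral cortex. A single ipsilateral library carries that mean, the groups overlap, and its log2 change was 3.71 (adjusted p = 0.76).

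**Figure D2:**
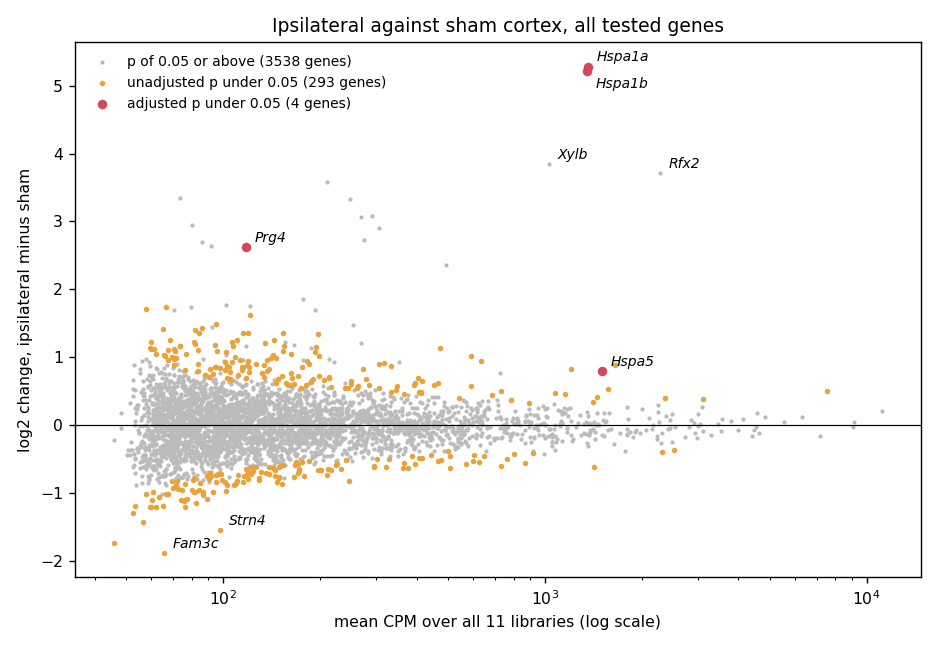
Log2 change from sham to ipsilateral cortex for each of the 3835 genes tested, against the mean level over all libraries (CPM, logarithmic axis), with called genes and genes at an unadjusted p under 0.05 in colour. Hspa1a and Hspa1b stand alone above 5, and the uncalled points between 2 and 4 are the 13 genes led by ipsilateral replicate 6.

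The other cytosolic chaperones gave 0 calls. Of 29 tested members of the heat shock list, 2 were called, 7 had an unadjusted p under 0.05 in the higher direction and 0 in the lower, and 22 lay above 0. The median log2 change of the list was 0.22, beside -0.0011 over all genes, of which 49.9% lay above 0. Over all genes 4.28% had an unadjusted p under 0.05 in the higher direction and 3.47% in the lower. These shares are the background for every list below. Cryab, the small heat shock protein alpha B crystallin, measured 58.9, 94.2 and 42.4 CPM in sham and 202, 117, 173 and 129 CPM in ipsilateral cortex. Its groups do not overlap, and the log2 change was 1.49 ± 0.34 at an adjusted p of 0.0578. Oligodendrocytes express Cryab too, and it is on both lists. Cryab passed in limma-voom (adjusted p = 0.0167), without sham replicate 2 (0.0278) and without the 2 shallowest libraries (0.0351). Of 13 tested chaperonin genes, which fold actin, tubulin and mitochondrial proteins, 0 reached an unadjusted p under 0.05. Their median was -0.01, and Cct4 measured 172 ± 26.9 CPM (mean ± SD, n = 3) in sham and 208 ± 44.4 CPM (n = 4) in ipsilateral cortex.

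In the endoplasmic reticulum list, Hspa5 was the only 1 of 20 tested members called. A further 5 members had an unadjusted p under 0.05, all higher, so 6 of 20 did, and 17 of 20 lay above 0 with a median of 0.31. Hyou1, a large partner chaperone of BiP, measured 338, 283 and 307 CPM in sham and 463, 587, 383 and 533 CPM in ipsilateral cortex, with no overlap (log2 change 0.62 ± 0.21, adjusted p = 0.346). Hsp90b1, the glucose-regulated chaperone GRP94, measured 1162, 707 and 1477 CPM in sham and 1517, 1408, 1682 and 1445 CPM ipsilaterally, which overlap (adjusted p = 0.514). The contralateral median of the same 20 genes lay 0.24 above sham and ipsilateral values lay 0.03 above contralateral ones, while for the heat shock list these medians were -0.04 and 0.27. Both comparisons share libraries with the main one, and neither set of medians was tested. Of 15 tested genes of the integrated stress response 1 had an unadjusted p under 0.05 and 11 lay above 0 (median 0.20). That member, the transcription factor gene Atf4, measured 27.5, 31.4 and 74.1 CPM in sham and 105, 117, 12.4 and 138 CPM in ipsilateral cortex. Ipsilateral replicate 5 lay below all 3 sham libraries and the other ipsilateral libraries above them (log2 change 1.04 ± 0.49, adjusted p = 0.628). These values rest on 7, 2 and 14 sham and 14, 4, 1 and 16 ipsilateral counts, so the order of the lowest libraries is uncertain.

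On the list of ubiquitin and proteasome genes 11 of 36 members lay above 0, with a median of -0.18, and 3 had an unadjusted p under 0.05 in the lower direction against 1 in the higher. Psmd6, a regulatory proteasome subunit, measured 232, 236 and 212 CPM in sham and 164, 117, 186 and 94.6 CPM in ipsilateral cortex, with no overlap (adjusted p = 0.468). Psmb5, a catalytic subunit, measured 186 ± 20.2 CPM in sham and 109.9 ± 52.1 CPM ipsilaterally (mean ± SD, n = 3 and 4), but 86.7% of its coding words occur in another gene.

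Linker histones, which bind DNA between nucleosomes, supplied 3 genes close to the threshold. Hist1h1d measured 55.0, 126 and 42.4 CPM in sham and 187, 147, 74.2 and 293 CPM in ipsilateral cortex (log2 change 1.63 ± 0.38, adjusted p = 0.0794). Its groups overlap through ipsilateral replicate 5 and sham replicate 2. Hist1h1c measured 98.2, 109.9 and 84.7 CPM in sham and 247, 117, 124 and 284 CPM ipsilaterally, with every ipsilateral library above sham (log2 change 1.16 ± 0.30, adjusted p = 0.0978). Hist1h1e (1.20 ± 0.31, 0.0978) overlaps Hist1h2be on the same strand over 496 nt and is uncertain. Between 30.6% and 36.0% of the coding words of these 3 genes occur in another gene. Over the 9 tested histones 7 lay above 0, with a median of 0.67. Cdkn1a, the cell cycle inhibitor p21 that is known to respond to DNA damage, measured 62.8, 15.7 and 58.2 CPM in sham and 119.6, 117, 86.6 and 232 CPM in ipsilateral cortex. No ipsilateral library fell within the sham range (log2 change 1.42 ± 0.37, adjusted p = 0.0978). Without ipsilateral replicate 5 the adjusted p was 0.0323 for Cdkn1a, 0.00443 for Hist1h1d, 0.0195 for Hist1h1c and 0.0496 for Hist1h1e. Hist1h1d also passed without sham replicate 2 (0.0237) and without the 2 shallowest libraries (0.0351). Other settings moved these genes away from the threshold. Without ipsilateral replicate 6 the adjusted p was 0.586 for Cdkn1a, 0.378 for Hist1h1d, 0.463 for Hist1h1c and 0.378 for Hist1h1e. In the fit blocked on day of surgery it was 0.746 for each of them.

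Myelin genes formed the list with the most members at an unadjusted p under 0.05. Of 19 tested genes of oligodendrocytes and myelin 12 reached it, all higher, 0 were called, and 19 of 19 lay above 0 with a median log2 change of 0.88. Over all genes tested 4.28% reached it in the higher direction and 49.9% lay above 0. Members of 1 cell type are not independent, and the lists were chosen with earlier results of these data known. Ptgds, which makes prostaglandin D2 and is found in oligodendrocytes and meninges, measured 915, 879.6 and 921 CPM in sham and 2242, 1672, 891 and 1600.2 CPM in ipsilateral cortex (log2 change 0.83 ± 0.19, adjusted p = 0.0794). Replicate 5 lies within the sham range, and the other ipsilateral libraries lie well above it. Cldn11, the tight junction protein of the myelin sheath, measured 157, 109.9 and 122 CPM in sham and 418, 235, 161 and 318 CPM ipsilaterally, with no overlap (1.15 ± 0.29, adjusted p = 0.0962). Apod, a lipid carrier, measured 122, 78.5 and 106 CPM in sham and 306, 352, 124 and 336 CPM ipsilaterally, again with replicate 5 just above sham (1.34 ± 0.32, adjusted p = 0.09). Without ipsilateral replicate 5 the adjusted p was 0.000421 for Ptgds, 0.00873 for Cldn11 and 0.00402 for Apod. DESeq2 also called Ptgds (0.0397) and Apod (0.0439). Other settings moved these genes away from the threshold. Without ipsilateral replicate 2 the adjusted p was 0.329 for Ptgds, 0.441 for Cldn11 and 0.280 for Apod. In the fit blocked on day of surgery it was 0.281, 0.152 and 0.746 in the same order.

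The summed level of the 19 oligodendrocyte and myelin genes was 5399, 5576 and 4728 CPM in sham and 12031, 9827, 5690.5 and 8018 CPM in ipsilateral libraries. Replicate 2 holds the most and replicate 5 barely exceeds the sham range. In bulk tissue a larger share of cells of a type and more RNA or more ribosomes per cell cannot be told apart. The median of the list without single libraries ran from 0.59 (without sham replicate 5) to 1.03, and was 0.62 without ipsilateral replicate 2.

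Microglial genes also lay mostly above 0. Of 13 tested members 8 had an unadjusted p under 0.05, all higher, 0 were called, and 12 lay above 0 with a median of 0.64. The shares over all genes were 4.28% (higher, unadjusted p under 0.05) and 49.9% (above 0). Their summed level, over the 14 genes measured, was 3883, 3424 and 4209 CPM in sham and 5343, 6072, 5047 and 5928 CPM in ipsilateral libraries, which do not overlap, and 4123, 4589, 4289.9 and 4319 CPM in contralateral libraries. Cx3cr1, the fractalkine receptor, measured 39.3, 15.7 and 63.5 CPM in sham and 89.7, 147, 124 and 129 CPM in ipsilateral cortex (log2 change 1.35 ± 0.39, adjusted p = 0.175). C1qc, a chain of the first complement component, measured 51.0, 62.8 and 90.0 CPM in sham and 157, 176, 148 and 112 CPM ipsilaterally (1.08 ± 0.33, adjusted p = 0.241). Cst3, the secreted protease inhibitor cystatin C, measured 1213, 1162 and 1467 CPM in sham and 1659, 2112, 1868 and 1876 CPM ipsilaterally (0.53 ± 0.15, adjusted p = 0.155), and DESeq2 called it (0.0481). All 3 genes had separate groups, but they were named for their low p in the same comparison. Counting them, 7 of the 13 tested members had every ipsilateral library above every sham library, beside 3.91% of all genes tested. Tmem119, a further microglial marker, was not analysed here, and of 25 listed inflammatory mediators and reactive glia genes 0 were tested.

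Of 25 tested astrocyte genes 1 had an unadjusted p under 0.05 and 19 lay above 0, with a median of 0.13. Gfap, the astrocyte filament protein, measured 66.7, 47.1 and 122 CPM in sham and 89.7, 264, 173 and 146 CPM in ipsilateral cortex, which overlap (log2 change 0.78 ± 0.35, adjusted p = 0.571). The summed astrocyte level was 33582 to 42438 CPM in sham and 39376 to 41249.9 CPM in ipsilateral libraries. Blood was present in both groups: the 4 globin genes summed to 1186, 895 and 1324 CPM in sham and 1517, 2024, 1287 and 1041 CPM in ipsilateral libraries, which overlap. Hbb-bs and Hbb-bt had equal or nearly equal values in every library, such as 616 CPM each in ipsilateral replicate 4. The sums may therefore count the same footprints more than once.

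**Figure D3:**
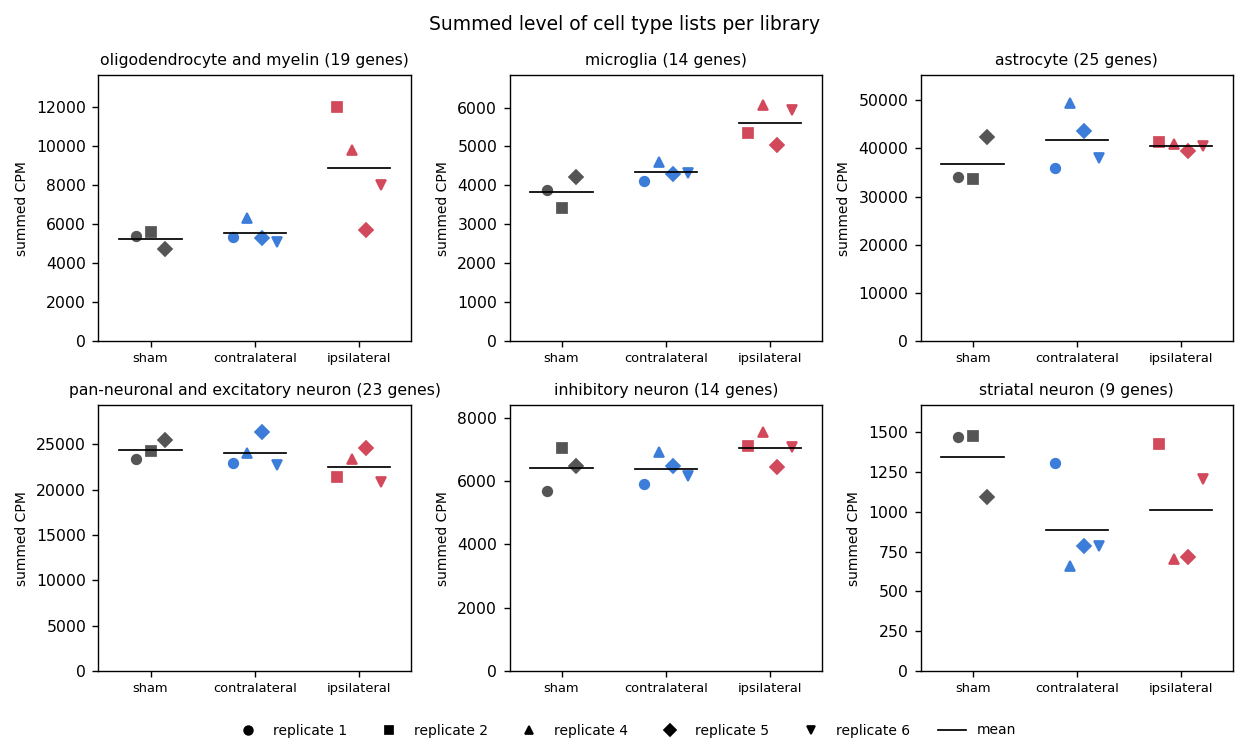
Summed footprint level (CPM) of each cell type list in every library, with 1 point per library and a line at the group mean, on axes that start at 0. The 4 ipsilateral libraries lie above all sham libraries for oligodendrocyte and microglia genes (5690 to 12031 and 5047 to 6072 CPM). They lie within or near the sham range for excitatory and inhibitory neurons and astrocytes. For striatal neuron genes ipsilateral replicates 4 and 5 (704 and 717 CPM) lie below the lowest sham library (1091 CPM).

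Neuronal genes lay slightly to the lower side. Of 23 tested genes of neurons and excitatory neurons 6 lay above 0, with a median of -0.17, and 0 in the lower and 0 in the higher direction had an unadjusted p under 0.05. Summed, they gave 23342, 24220.2 and 25479 CPM in sham and 21365, 23438, 24593 and 20803 CPM in ipsilateral libraries, which overlap. Slc17a7, which loads glutamate into vesicles, measured 1056, 1555 and 1059 CPM in sham and 598, 1115, 1101 and 972 CPM ipsilaterally (log2 change -0.38 ± 0.20, adjusted p = 0.672). Inhibitory neuron genes had 11 of 14 members above 0, a median of 0.32 and 3 at an unadjusted p under 0.05. Pvalb, the calcium buffer of fast-spiking interneurons, measured 70.7, 47.1 and 79.4 CPM in sham and 142, 235, 74.2 and 138 CPM in ipsilateral cortex, and its groups overlap through replicate 5 (adjusted p = 0.405). Gad2, a GABA-synthesising enzyme, measured 200.2, 267 and 233 CPM in sham and 717, 117, 285 and 318 CPM ipsilaterally, with replicate 2 far above and replicate 4 below every sham library (adjusted p = 0.53).

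Since no gene was called lower, the lower direction is described by 10 of the 12 genes with the lowest p. Strn4, a striatin scaffold of phosphatase 2A, came first, with 149, 173 and 154 CPM in sham and 14.9, 29.3, 86.6 and 77.4 CPM in ipsilateral cortex (log2 change -1.55 ± 0.38, adjusted p = 0.09). Ipsilateral replicates 2 and 4 are lowest, on 2, 1, 7 and 9 counts in the 4 libraries. Ppp3ca, the catalytic subunit of the calcium-activated phosphatase calcineurin, measured 1861, 1822 and 1567 CPM in sham and 1098, 733, 1522 and 1093 CPM ipsilaterally, with replicate 5 just below sham (-0.62 ± 0.17, adjusted p = 0.123). Strn4 and Ppp3ca were the 2 genes called lower without ipsilateral replicate 5 (adjusted p of 0.0226 and 0.0140). Fam3c, a secreted cytokine-like protein, measured 55.0, 126 and 101 CPM in sham and 7.47, 29.3, 37.1 and 25.8 CPM ipsilaterally (-1.89 ± 0.52, adjusted p = 0.125). Its ipsilateral values rest on 1, 1, 3 and 3 counts, none above the floor of 3 counts, so its fall is poorly measured.

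Gnb1, a G protein beta subunit, measured 585, 628 and 694 CPM in sham and 418, 293, 433 and 439 CPM in ipsilateral cortex (-0.63 ± 0.19, adjusted p = 0.203). Fkbp1a, an immunophilin that binds calcium release channels and, with FK506, calcineurin, measured 322, 298 and 344 CPM in sham and 164, 117, 161 and 249 CPM ipsilaterally (-0.82 ± 0.25, adjusted p = 0.208), and 20.7% of its coding words occur in another gene. In both the groups are separate, and ipsilateral replicate 4, the shallowest library, is lowest.

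Cacna2d1, a calcium channel subunit that carries channels to the synapse, measured 687, 549.7 and 709.5 CPM in sham and 404, 469, 421 and 516 CPM in ipsilateral cortex (-0.55 ± 0.18, adjusted p = 0.344). Its contralateral libraries, at 876, 757, 707 and 762 CPM, lie close to or above the highest sham value, and the ipsilateral minus contralateral difference of -0.78 was called (adjusted p = 0.0147). Ppp1r1b, the dopamine signalling protein DARPP-32 of striatal neurons, measured 224, 314 and 233 CPM in sham, 194, 58.7, 61.9 and 146 CPM in ipsilateral and 101, 99.4, 145 and 101 CPM in contralateral cortex. Both hemispheres lie below sham, and their values overlap each other (log2 difference 0.24). The 9 tested genes of the striatal neuron list summed to 1472, 1476 and 1091 CPM in sham and 1427, 704, 717 and 1204 CPM in ipsilateral libraries, which overlap, with 3 of 9 above 0 and a median of -0.19. The striatal markers Drd1, Drd2, Adora2a, Rgs9 and Pde10a were not analysed here, and the part of dissection in the lower values was not tested.

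Further genes among these were Cmpk1, a nucleotide kinase, Rab5c, of early endosomes, and Pds5b, a cohesin regulator. Rab5c measured 106, 141 and 122 CPM in sham and 59.8, 29.3, 49.5 and 68.8 CPM in ipsilateral cortex (-1.03 ± 0.35, adjusted p = 0.352). Pds5b measured 157, 173 and 217 CPM in sham and 97.1, 88.0, 124 and 94.6 CPM ipsilaterally (-0.84). Their groups do not overlap. Cmpk1 measured 94.2, 31.4 and 68.8 CPM in sham and 37.4, 0, 24.7 and 8.60 CPM ipsilaterally (-1.74), which overlap, and 37.9% of its coding words occur in another gene. A count of 0 in ipsilateral replicate 4 still allows 3 footprints of Cmpk1.

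**Figure D4:**
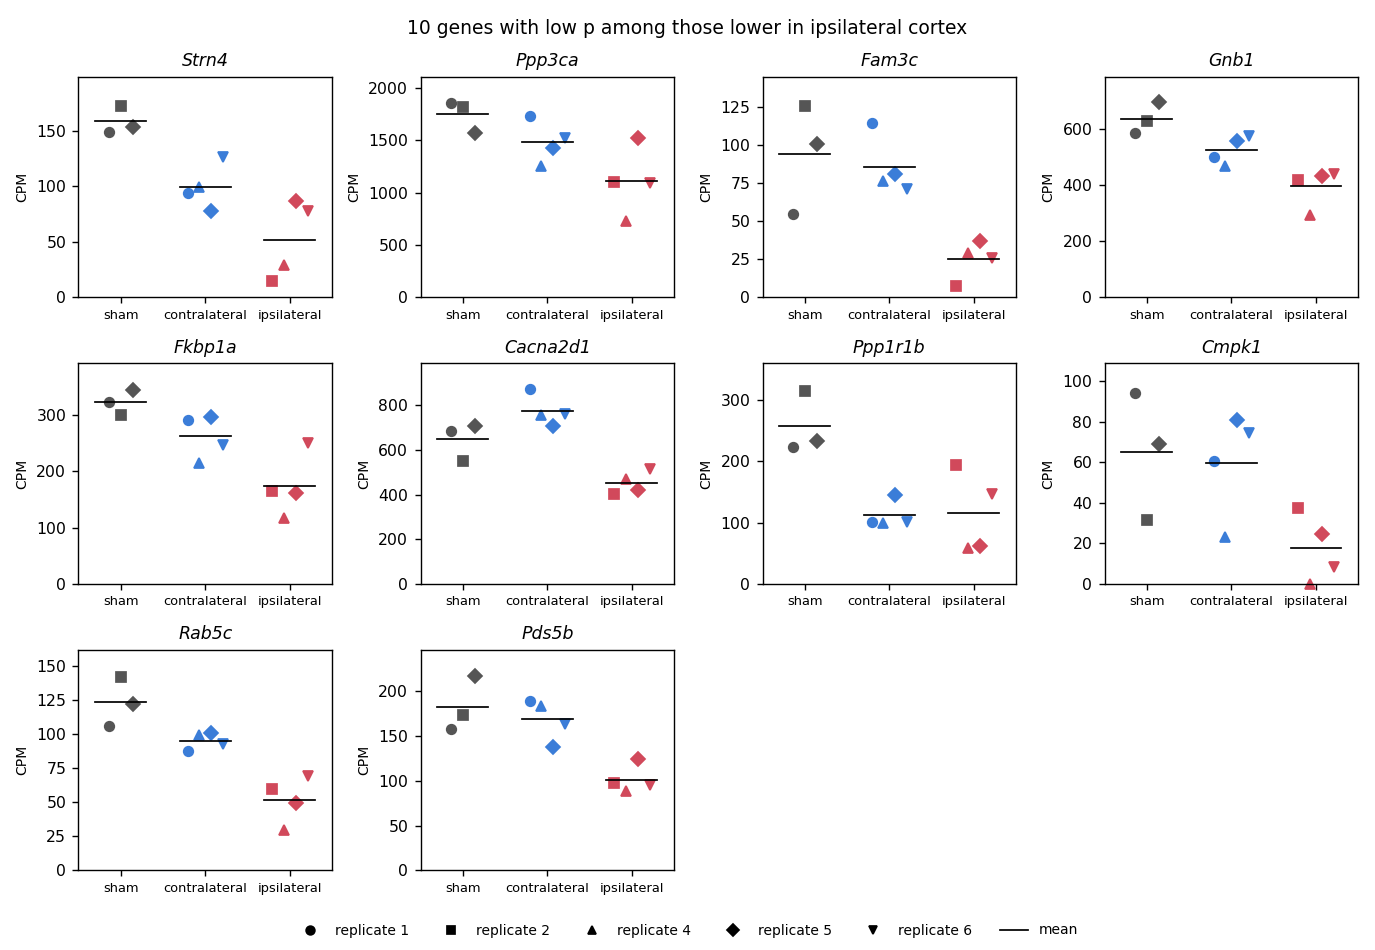
Footprint level (CPM) in every library for 10 of the 12 genes with the lowest p among those lower in ipsilateral than in sham cortex, with 1 point per library, replicates by shape and a line at the group mean, on axes that start at 0. In all but Cmpk1 the 4 ipsilateral points lie below the 3 sham points. These genes were chosen by low p in the same comparison, so this separation is no separate evidence. Over all 3835 genes tested it held for 126 (3.29%). All 4 contralateral points lie between the other groups for Gnb1 and Rab5c, and in Cacna2d1 they reach above the sham points.

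Genes of glutamate handling and of the synapse, which the series concerns, gave 0 calls. Of 20 tested genes of glutamate transport and metabolism 13 lay above 0, with a median of 0.08 and 2 at an unadjusted p under 0.05. Slc1a1, the neuronal glutamate transporter, measured 208, 94.2 and 228 CPM in sham and 299, 235, 297 and 267 CPM in ipsilateral cortex, with no overlap (log2 change 0.54 ± 0.25, adjusted p = 0.618). It overlaps the oppositely oriented 4430402I18Rik over 1216 nt. Of 28 tested glutamate receptor and scaffold genes 15 lay above 0 (median 0.05). Shank1, a postsynaptic scaffold, measured 55.0, 62.8 and 63.5 CPM in sham and 67.3, 176, 136 and 189 CPM ipsilaterally (1.16 ± 0.38), and Grik5, a kainate receptor subunit, 74.6, 173 and 111 CPM in sham and 59.8, 88.0, 24.7 and 51.6 CPM ipsilaterally (-0.99 ± 0.40).

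The synaptic vesicle list leaned lower, with 9 of 33 members above 0, a median of -0.13 and 4 at an unadjusted p under 0.05 in the lower direction against 0 in the higher. Cplx2, which clamps vesicle fusion, measured 436, 487 and 529 CPM in sham and 276, 411, 272 and 327 CPM in ipsilateral cortex, with no overlap (log2 change -0.64 ± 0.23, adjusted p = 0.381). Vamp2, the vesicle membrane fusion protein, measured 715, 723 and 694 CPM in sham and 560.5, 763, 495 and 369.9 CPM ipsilaterally, with replicate 4 above every sham library (-0.45 ± 0.20, adjusted p = 0.556). Syn2, which tethers vesicles, measured 554, 565 and 487 CPM in sham and 411, 205, 371 and 473 CPM ipsilaterally (-0.45 ± 0.21). Voltage-gated channels had 13 of 37 above 0 (median -0.07) and ion pumps and exchangers 11 of 19 (median 0.05). Cacna2d2, a relative of Cacna2d1, lay on the opposite side of 0, at 62.8, 141 and 37.1 CPM in sham and 157, 88.0, 111 and 181 CPM in ipsilateral cortex (1.17 ± 0.36, adjusted p = 0.272).

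Immediate early genes, which neurons switch on with activity, varied between libraries in both groups. Summed, they gave 2737, 2419 and 1583 CPM in sham and 1547, 2581, 1571 and 3416 CPM in ipsilateral libraries. Of 13 tested immediate early genes 7 lay above 0 with a median of 0.01, and 2 had an unadjusted p under 0.05. Fos, a subunit of the AP-1 transcription factor, measured 161, 173 and 37.1 CPM in sham and 172, 205, 124 and 361 CPM in ipsilateral cortex (0.94 ± 0.44, adjusted p = 0.635). Contralateral Fos was 7.65 to 33.6 CPM, below both sham and ipsilateral libraries. Jun, its partner, measured 74.6, 94.2 and 68.8 CPM in sham and 135, 176, 49.5 and 379 CPM ipsilaterally, with replicate 6 highest and replicate 5 below sham (1.36 ± 0.47, adjusted p = 0.405, and 0.0172 without ipsilateral replicate 5). Nptx2, a secreted protein that clusters glutamate receptors, measured 129.6, 157 and 143 CPM in sham and 127, 499, 259.8 and 413 CPM ipsilaterally, and replicate 2 lay just below sham (1.07 ± 0.30, adjusted p = 0.155, and 0.00774 without ipsilateral replicate 2). Its relative Nptx1 measured 722, 785 and 588 CPM in sham and 441, 381, 619 and 439 CPM ipsilaterally, in the opposite direction (-0.54 ± 0.20, adjusted p = 0.42). The list of activity-regulated secreted and synaptic genes had 14 of 20 members above 0 (median 0.16). The median of the immediate early list ran from -0.22 without ipsilateral replicate 6 to 0.25 without ipsilateral replicate 2.

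Genes of the protein synthesis machinery gave 0 calls. Cytosolic ribosomal proteins had 31 of 48 members above 0, a median of 0.20 and 1 at an unadjusted p under 0.05. Many have near copies, and the member with the lowest p, Rpl37 (94.2, 62.8 and 79.4 CPM in sham and 187, 29.3, 136 and 120.4 CPM in ipsilateral cortex), shares 89.5% of its coding words with another gene. Translation factors had 23 of 35 above 0 (median 0.14). CPM are shares of a library, so a fall in footprints of all genes together would leave no trace in these values.

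Energy metabolism gave 0 calls. Oxidative phosphorylation had 18 of 51 members above 0 with a median of -0.11. Sdhd, a membrane anchor of succinate dehydrogenase, measured 78.5, 188 and 106 CPM in sham and 44.8, 58.7, 37.1 and 60.2 CPM in ipsilateral cortex, with no overlap (-1.10 ± 0.40, adjusted p = 0.4). Glycolysis and the citric acid cycle had 16 of 32 above 0. The phosphofructokinase of muscle and brain, Pfkm, measured 1040.5, 1241 and 974 CPM in sham and 807, 821, 729.9 and 869 CPM ipsilaterally, also with no overlap (-0.41 ± 0.16, adjusted p = 0.457). Cholesterol synthesis had 12 of 14 members above 0, a median of 0.42 and 4 at an unadjusted p under 0.05. Dhcr7, the enzyme of the last step, measured 39.3, 62.8 and 31.8 CPM in sham and 105, 117, 86.6 and 77.4 CPM in ipsilateral cortex (1.22 ± 0.40, adjusted p = 0.346), and contralateral values of 60.6 to 130.0 CPM cover the ipsilateral ones. Of 10 tested hypoxia and growth arrest genes 7 lay above 0 (median 0.28), among them Ndrg1, which hypoxia is known to induce, at 70.7, 31.4 and 37.1 CPM in sham and 179, 88.0, 86.6 and 68.8 CPM ipsilaterally (1.11 ± 0.42, adjusted p = 0.416). It overlaps the oppositely oriented Gm17035 over 419 nt. Antioxidant enzymes had 11 of 15 above 0 (median 0.06), and tubulins and axonal cytoskeleton 19 of 33 (median 0.01).

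**Figure D5:**
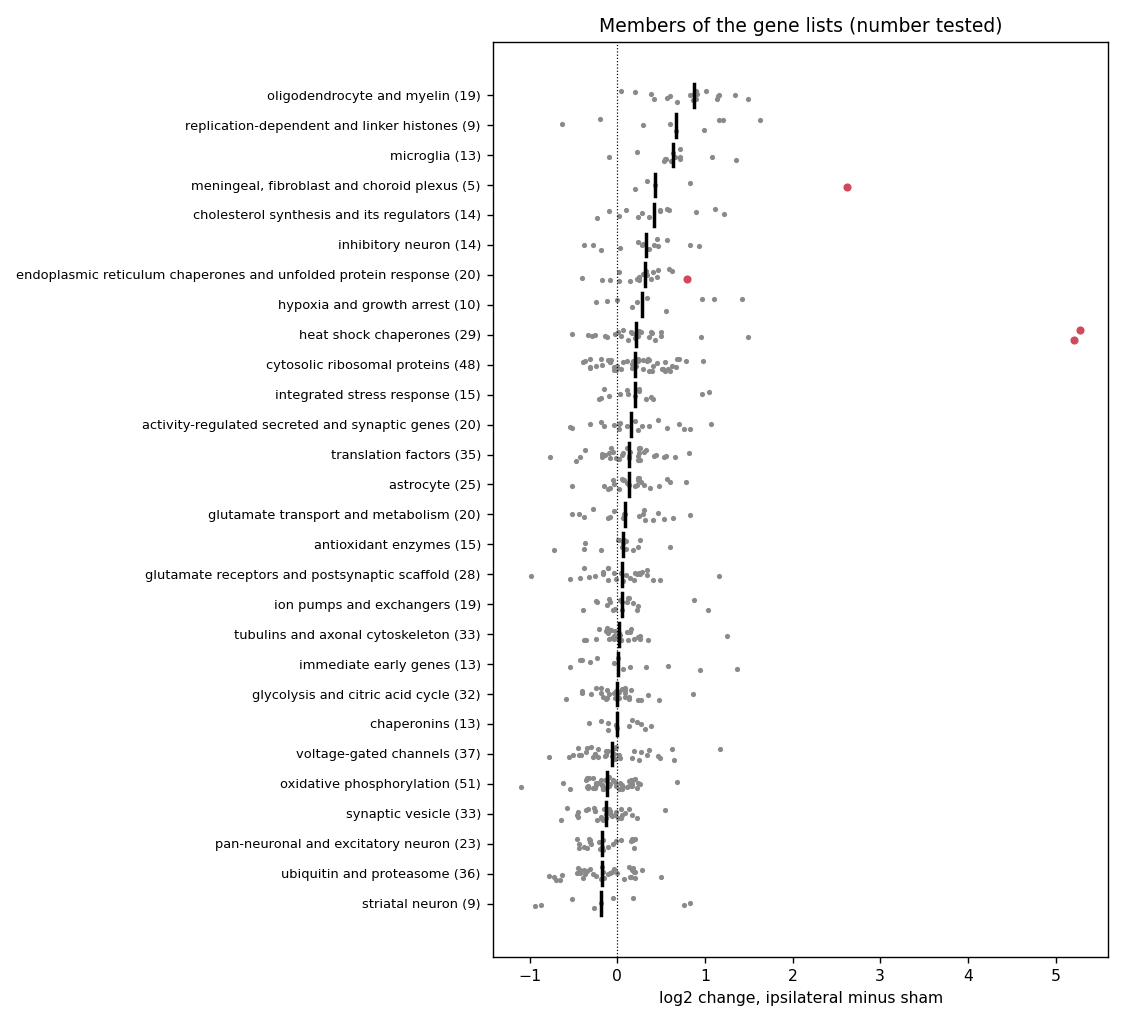
Log2 change from sham to ipsilateral cortex of each tested member of the gene lists, with 1 point per gene, called genes as large coloured points and a bar at the list median. The highest medians are those of oligodendrocyte and myelin genes (0.88), histones (0.67) and microglia (0.64), beside -0.0011 for all genes; the called genes are Hspa1a and Hspa1b past 5, Prg4 at 2.62 and Hspa5 at 0.79.

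Bmp3, a secreted growth factor of the TGF-beta family, was also among the 12 genes with the lowest p in the higher direction. It measured 39.3, 31.4 and 74.1 CPM in sham and 127, 88.0, 136 and 163 CPM in ipsilateral cortex, with no overlap (log2 change 1.40 ± 0.36, adjusted p = 0.0978). A further 503 genes with summed counts of 101 to 147 were left out of the test for low counts. Among these 503, all ipsilateral libraries lay above all sham libraries for 11 and below them for 19. Of the 3835 genes tested the same held for 150 (3.91%) and 126 (3.29%).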

How the data were processed

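The deposited values are whole-number footprint counts per Ensembl transcript, made by the authors with 1 column per library. Per the labels' protocols, micrococcal nuclease treatment of cortex and monosome purification were followed by immunoprecipitation of the large-subunit protein P0. Fragments of 30-50 nt were cut from a gel and inserts of 15-35 bp were read as 69 bp single ends on a MiSeq. The submitters' processing notes name Bowtie2, edgeR and mm10. Not given in the sources used here are their versions, the annotation, strand use and read filters.

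Of 9784 transcripts, all with a summed count of at least 101, 9736 matched a GENCODE vM21 gene, and the other 48 (0.306% of counts) were left out. For each of 4338 genes the transcript with the most counts stood in, since 2235 transcripts carried the same counts as an earlier one. All 11 libraries were fitted together with edgeR 4.0.16 in R 4.3.3 (robust quasi-likelihood F test after TMM scaling and filterByExpr at a minimum count of 10), which kept 3835 genes. P-values were adjusted by Benjamini-Hochberg over these. The common dispersion was 0.0291. CPM were computed after TMM scaling, and a floor of 3 counts covers counting error only. The test was tried on simulated counts.

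DESeq2 1.42.0, limma-voom (limma 3.58.1), other scalings and filters, the longest transcript, a replicate block and leaving out libraries were alternatives, and fits without a library tested the same genes. Replicate numbers name days of surgery in the submitters' design text, which pairs libraries. As a check, deviations from group means correlated across genes at r = -0.139 for replicate 2 and 0.164 for replicate 5, against -0.255 to 0.259 for other pairs of ipsilateral and sham libraries. The text names called genes, the 12 lowest p in each direction and the 3 lowest p of each list with at least 5 tested members; a few others are named for level or marker role, and some genes that met the rule are not reported here. Rfx2 and the genes led by 1 library were chosen after their values were seen. Members and lists were chosen with earlier results of these data known. Words of 28 nt were compared between coding sequences.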

Additional observations from a re-analysis of the deposited data

Results flagged for a closer look

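In 3 named genes a single ipsilateral library stood apart from the other 3, by the gap to its nearest neighbour against Dixon's critical value for 4 values. Chance alone gives such a gap in about 1 in 20 groups, and 84 named genes were looked at. Gnb1 was lowest in ipsilateral replicate 4, at 293 CPM. Idh3a, a citric acid cycle enzyme, measured 774 CPM and Insig1, a brake on cholesterol synthesis, 155 CPM in ipsilateral replicate 6, above all other ipsilateral libraries.

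By the edgeR test of ipsilateral against contralateral libraries, the change from sham differed between hemispheres for 7 named genes. In that test 13 genes (0.339%) were called higher and 1 (0.0261%) lower. Replicates 4, 5 and 6 gave a library from each hemisphere, but the test had no term for day of surgery and treated the sides as independent. It was not repeated with such a term. The log2 difference was 4.99 for Hspa1b, 4.95 for Hspa1a, 3.03 for Fos, 1.56 for Nptx2, 1.53 for Cryab, 1.07 for Cldn11 and -0.78 for Cacna2d1. Of these only Hspa1a and Hspa1b were also called against sham. For Fos the contralateral libraries (7.65 to 33.6 CPM) lay below all sham libraries (37.1 to 173 CPM).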

How the results depend on the processing

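The count of higher genes was 3 to 5 with other scalings, filters, the longest transcript, a non-robust fit, limma-voom, sham and ipsilateral libraries alone and without the 2 shallowest libraries, and 10 with DESeq2. Leaving out 1 library at a time gave 0 to 20 higher genes (0 without sham replicate 1, 20 without ipsilateral replicate 5) and 0 to 2 lower genes, and the cause was not tested. A fit with the replicate block called 3 genes higher and 0 lower. It ended the call of Hspa5 (log2 change 0.73, adjusted p = 0.0940) and changed no other call of a named gene, with 4.55 for Hspa1a and 4.52 for Hspa1b. Of 1441 values of 84 named genes under these alternatives, 1409 kept their direction and side of the threshold, 13 lost a call, 19 gained one and 0 reversed. Only the 4 called genes could lose a call, so all 13 losses fall on Hspa1a, Hspa1b, Hspa5 and Prg4. Most of the 1409 values belong to genes that were not called in the main fit. The 1441 values leave out 44 named genes to which DESeq2 gave no adjusted p, and 27 not tested at a minimum count of 20. Among the 44 is Prg4 (log2 change 2.66, unadjusted p = 4.78e-07), which DESeq2 did not call and which is not among the 13 losses for that setting. Without sham replicate 1 the adjusted p was 0.0504 for Hspa1a and Hspa1b and 0.132 for Hspa5 and Prg4.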

Other observations

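A few genes owed their level to a single library. By a rule chosen after the values were seen (over 3 times every other library and over 300 CPM), 12 genes qualified, 6 in ipsilateral replicate 6, 4 in ipsilateral replicate 4, 2 in sham replicate 2 and 0 in the other 8 libraries. Rfx2 reached 19056 CPM in ipsilateral replicate 6, 1.91% of that library, and at most 2034 CPM elsewhere. Csnk1d, a clock kinase, reached 1695 CPM and Fam183b 1652 CPM in the same library, with next values of 283 and 264 CPM. In ipsilateral replicate 4, Akap12, a kinase scaffold, reached 645 CPM (next 161 CPM) and Ccn4, a secreted matrix protein, 1027 CPM (next 330 CPM). In sham replicate 2, Glycam1 reached 487 CPM (next 120 CPM) and Igsf10 377 CPM (next 76.5 CPM). None of these 7 genes was called, and their cause was not tested. Xylb was high in both hemispheres of replicate 6, at 4328 CPM ipsilaterally and 4889 CPM contralaterally, and at most 675 CPM in the other libraries.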
